A study of Ovis aries with 15 samples.

Results

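The genes described are those of the prolactin receptor pathway in the sheep mammary gland: the prolactin receptor gene PRLR, the kinase JAK2, the transcription factors STAT5A, STAT5B and ELF5, and the feedback inhibitors CISH, SOCS1 and SOCS2. They were chosen by name, with earlier results of these data known, as the features of the deposited table whose symbol is one of these 8. Of the 8 symbols 7 matched 1 of the 24691 features, and PRLR was not analysed here. Of the 7, 6 held enough reads to enter the comparison of states, among 13345 features tested, and SOCS1 did not.

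Prolactin binds its receptor on mammary epithelial cells and activates JAK2, which is attached to the inner tail of the receptor. JAK2 phosphorylates STAT5, which then moves to the nucleus and switches on milk protein genes and genes of alveolar growth. ELF5 is an ETS family factor of luminal progenitors and secretory cells that acts beside STAT5, and CISH and the SOCS proteins are switched on by STAT5 and damp the receptor and JAK2 in return.

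RNA-seq was carried out on needle biopsies of mammary parenchyma from 2-year-old Romney ewes in their first pregnancy, taken at day 135 ± 2.4 (SD) of gestation and at day 15 ± 1.27 (SD) post partum. There were 9 late pregnancy and 6 lactation libraries, each made from pooled RNA, and the sample descriptions give 3 ewes to a late pregnancy pool and 2 to a lactation pool, whereas the methods of the study give 3 to every pool. All ewes were managed alike and differed in the feed of their own dams: HM ewes had dams fed ad libitum in early gestation, MM ewes had dams on maintenance, and LM ewes had dams below maintenance, and the dams of all 3 groups were on maintenance for the rest of gestation. Each dam group holds 3 late pregnancy and 2 lactation pools, and ewes were biopsied in both states, but the labels do not say which ewes are in which pool, so p-values measure only the spread between pools.

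Late pregnancy libraries held 6471237 to 16898986 reads on features, and the depth was 9014506 to 24001031 reads in lactation. The 7 milk protein genes listed for the pathway took 13.7% to 23.4% of a late pregnancy library and 71.3% to 75.8% of a lactation library. Levels are therefore given as CPM, the reads of a gene per 1e+06 reads of its library, scaled by TMM, a method that sets the bulk of genes equal between libraries, and not as shares of all reads. TMM put the median change of all tested genes at -0.03 on the log2 scale, against -1.94 when only the library size was used, and each rise of exon reads reported here for ELF5, JAK2, CISH and SOCS2 is a rise relative to most other genes whose log2 change is below 0 on library size alone, for CISH only at -0.17. The pools hold a mixture of cell types, so fewer cells of a type and less RNA per cell cannot be told apart. Summed levels of 8 luminal epithelial markers were 856.8 to 1262 CPM in late pregnancy and 1320 to 1571 CPM in lactation, most of it KRT19, which went from 622.3 to 947.5 CPM, and of the 8, 4 were called higher, 1 lower and 3 not called. Markers of several other cell types were lower in lactation. All 5 T cell markers found were lower, with summed levels of 39.66 to 63.48 CPM and then 12.75 to 19.49 CPM, as were 3 of 3 endothelial markers (140.4 to 191.6 CPM and then 85.85 to 124.0 CPM), 4 of 5 fibroblast markers (406.8 to 694.6 CPM and then 280.8 to 430.9 CPM) and 4 of 6 macrophage markers (142.4 to 190.7 CPM and then 70.51 to 101.3 CPM). Of 6 myoepithelial markers 2 were higher and 2 lower, 0 of 3 adipocyte markers tested were called, and 1 of 2 B and plasma cell markers tested was higher and 1 lower. No marker found was at 0 in every library. The markers' part in the results below was not tested.

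Of the 7 members 6 were compared between states, in edgeR's quasi-likelihood test with Benjamini-Hochberg adjustment over all tested genes. ELF5, JAK2, CISH and SOCS2 were higher in lactation, and STAT5A and STAT5B were lower. The background is high: 68.4% of all tested genes passed, 33.1% higher and 35.2% lower in lactation, so that passing is not particular to these genes. Of the 6, 5 had no overlap between the libraries of the states, against 40.2% of all tested genes.

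ELF5 lies at chr15:63218968-63251053 in the coordinates of the deposited table, with 10 annotated exons, and was by far the highest of the members. Its late pregnancy pools read 677.1, 642.9 and 645.5 CPM in HM, 593.1, 670.5 and 593.8 CPM in MM, and 608.6, 605.2 and 624.3 CPM in LM. Its lactation pools read 1153 and 1168 CPM in HM, 1081 and 1019 CPM in MM, and 1102 and 1075 CPM in LM. Every lactation pool was above every late pregnancy pool. The means were 629.0 ± 31.7 CPM (SD, n = 9) and 1100 ± 54.7 CPM (SD, n = 6), a log2 change of 0.81 (SE 0.05, 95% interval 0.70 to 0.91) or 1.75-fold, with an edgeR adjusted p of 2.37e-11. Its mean level stood at the 99.4 percentile of the tested genes, and its change at the 87.6 percentile of their signed changes.

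STAT5A and STAT5B, the STAT5 proteins of the pathway, are near-identical copies that lie beside each other on chromosome 11. STAT5B is at chr11:41805685-41844031 and STAT5A at chr11:41880623-41900463, with 36591 bases between them, and STAT3 starts 2277 bases after STAT5A. STAT5A was lower in lactation by 0.35 on the log2 scale, a change of -0.35 (SE 0.06, 95% interval -0.48 to -0.22) or 1.27-fold, with an edgeR adjusted p of 3.8e-05. Its level was 170.6, 191.0 and 207.6 CPM at the lowest, median and highest of the 9 late pregnancy pools, and 129.1, 149.4 and 169.8 CPM at the lowest, median and highest of the 6 lactation pools. The 2 states did not overlap, but the highest lactation pool, MM pool 1, and the lowest late pregnancy pool, LM pool 2, nearly met.

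STAT5B read 108.5, 120.8 and 134.2 CPM at the lowest, median and highest late pregnancy pool and 86.04, 98.17 and 109.7 CPM in lactation, where HM pool 1 was above the lowest late pregnancy pool. Its log2 change was -0.31 (SE 0.06, 95% interval -0.43 to -0.18), with an edgeR adjusted p of 0.000134. Of the reads on these exons 82.7% were uniquely placed for STAT5A and 89.8% for STAT5B, whereas the share was at least 99.9% for ELF5, JAK2, CISH and SOCS2, so how the counting split the shared reads between the pair is uncertain. With uniquely placed reads alone the changes were -0.36 for STAT5A and -0.34 for STAT5B, and with the reads of the pair summed the change was -0.33 (SE 0.06), with an edgeR adjusted p of 3.33e-05. STAT3, the neighbour on the same chromosome, had a log2 change of -0.02 with an adjusted p of 0.673.

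JAK2, the kinase carried by the receptor, lies at chr2:72781035-72896511 with 26 annotated exons. Its late pregnancy pools read 18.17, 20.20 and 15.81 CPM in HM, 23.95, 20.99 and 22.70 CPM in MM, and 16.85, 19.36 and 19.85 CPM in LM. Its lactation pools read 47.47 and 47.30 CPM in HM, 33.68 and 31.11 CPM in MM, and 38.25 and 39.59 CPM in LM. The states did not overlap, and within lactation the 3 dam groups, with only 2 pools each, did not overlap each other, with HM highest and MM lowest. The share of all genes whose dam groups lie apart in this way was not computed, so the order is given as a description only. The log2 change over all pools was 0.99 (SE 0.10, 95% interval 0.77 to 1.20) or 1.98-fold, with an edgeR adjusted p of 4.08e-08.

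CISH, an inhibitor that STAT5 switches on and that occupies the sites where STAT5 docks on cytokine receptors, showed the largest change of the 6 members tested. It lies at chr19:49701239-49706595. Its late pregnancy pools read 16.93, 19.06 and 20.81 CPM at the lowest, median and highest, and its lactation pools 53.63 and 61.36 CPM in HM, 54.82 and 71.13 CPM in MM, and 66.46 and 78.42 CPM in LM. The lowest lactation pool stood above the highest late pregnancy pool by more than the whole range of the late pregnancy pools. The log2 change was 1.74 (SE 0.08, 95% interval 1.58 to 1.90) or 3.34-fold, with an edgeR adjusted p of 9.27e-14, at the 96.0 percentile of the signed changes of all tested genes. The spread between pools was also wider in lactation, with a coefficient of variation of 15.0% against 6.8% in late pregnancy. This was not particular to CISH: STAT5A, STAT5B and JAK2 also varied more in lactation, and ELF5 and SOCS2 did not. The share of all genes that varied more in lactation was not computed. By the sample descriptions a lactation pool held 2 ewes and a late pregnancy pool 3, and the part of pool size was not tested.

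SOCS2, best known as a brake on growth hormone receptor signalling, rose less. It lies at chr3:129720294-129723520 and read 24.81, 30.14 and 33.48 CPM at the lowest, median and highest late pregnancy pool, and 34.46, 39.96 and 43.96 CPM in lactation. The states did not overlap, although the lowest lactation pool (HM pool 2) and the highest late pregnancy pool (HM pool 1) lay close together. The log2 change was 0.44 (SE 0.07, 95% interval 0.30 to 0.59), with an edgeR adjusted p of 1.38e-05.

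SOCS1, a direct inhibitor of JAK kinases, was at the edge of detection. Its single annotated exon of 554 bases at chr24:9906107-9906660 collected 129 reads over the 15 libraries, 4 to 10 in each late pregnancy library and 3 to 22 in each lactation library. The scaled levels were 0.31 ± 0.12 CPM (SD, n = 9) in late pregnancy and 1.68 ± 0.88 CPM (SD, n = 6) in lactation, and the lowest lactation pool, HM pool 1, held 0.66 CPM against 0.55 CPM in the highest late pregnancy pool. It failed the filter on low counts, so it has no place in the comparison, but without the filter edgeR gave a log2 change of 2.43 with an adjusted p of 8.86e-07. It passed the filter in the libraries with lane 8 in the column name, with a log2 change of 2.88. The lactation pools of that set, LM pools 1 and 2 and MM pool 2, were those where SOCS1 was highest, at 2.984, 1.903 and 2.255 CPM. The value of 2.88 is therefore no separate support for a rise. The HM pool with 0.66 CPM rests on 3 reads. In the deposited RPKM values, which divide by all reads on genes, the states overlapped for SOCS1. They were 0.439 to 1.425 RPKM in late pregnancy and 0.523 to 2.191 RPKM in lactation, so its rise also depends on the scaling.

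**Figure D1:**
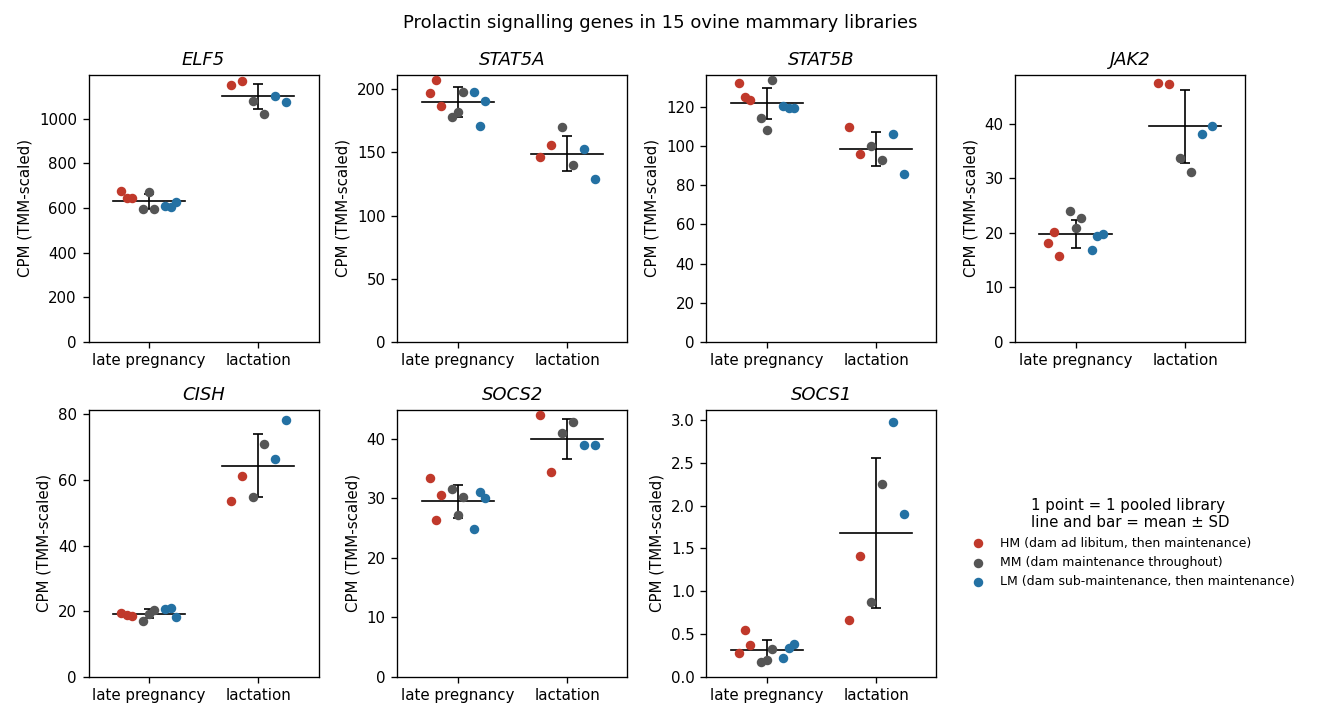
TMM-scaled CPM of each of the 7 members in the 15 libraries, late pregnancy on the left and lactation on the right of each panel, with 1 point per pooled library coloured by dam group and a line and bar for the mean ± SD. ELF5, JAK2, CISH and SOCS2 are higher and STAT5A and STAT5B lower in lactation, only STAT5B overlaps between states among the 6 tested, and on library size alone all 6 would be lower in lactation.

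Per kilobase of exon, the order of the levels was ELF5, STAT5A, STAT5B, SOCS2, CISH, JAK2 and SOCS1 in late pregnancy, and ELF5, STAT5A, CISH, STAT5B, SOCS2, JAK2 and SOCS1 in lactation. In late pregnancy the means were 430.8 ± 21.7 CPM per kb for ELF5, 72.44 ± 4.42 for STAT5A, 28.5 ± 1.87 for STAT5B, 16.11 ± 1.53 for SOCS2, 10.42 ± 0.71 for CISH and 4.14 ± 0.55 for JAK2 (SD, n = 9), and no neighbours in that order overlapped over the pools. In lactation they were 753.3 ± 37.4 CPM per kb for ELF5, 56.79 ± 5.33 for STAT5A, 34.91 ± 5.23 for CISH, 23.01 ± 2.03 for STAT5B, 21.89 ± 1.85 for SOCS2 and 8.29 ± 1.42 for JAK2 (SD, n = 6). The pools of STAT5B ranged from 20.09 to 25.61 CPM per kb there and those of SOCS2 from 18.85 to 24.05 CPM per kb, so those neighbours did not differ beyond their spread. CISH, with 29.11 to 42.57 CPM per kb, had moved past both.

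Ratios between members within a library do not depend on how libraries are scaled, and 4 of them were compared between states by a two-sided exact permutation test. The log2 ratio of ELF5 to STAT5A per kilobase was 2.57 ± 0.10 (SD, n = 9) in late pregnancy and 3.73 ± 0.13 (SD, n = 6) in lactation, a rise of 1.16 or 2.23-fold. The ratio of JAK2 to STAT5A went from -4.14 ± 0.22 to -2.79 ± 0.29, a rise of 1.35 or 2.55-fold. The ratio of SOCS2 to CISH changed sign, from 0.63 ± 0.19 to -0.66 ± 0.27, and differed by -1.29 or 2.44-fold. Each of these 3 ratios separated the states without overlap in all 15 libraries, with an exact permutation p of 2e-04 (0.00027 adjusted over the 4 ratios), which is the smallest that 9 and 6 libraries can give. For the ratios to STAT5A this outcome was fixed by the scaled levels, where STAT5A lay apart in the opposite direction to ELF5 and JAK2. These tests are therefore no separate support for a change of either gene. Ratios of other gene pairs were not computed as a background.

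The ratio of STAT5A to STAT5B was the exception. It was 1.35 ± 0.08 in late pregnancy and 1.30 ± 0.12 in lactation, with libraries from 1.22 to 1.46 and from 1.12 to 1.47, a difference of -0.04 and an exact permutation p of 0.40. The reads shared by the pair bear on this ratio as they do on each gene.

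**Figure D2:**
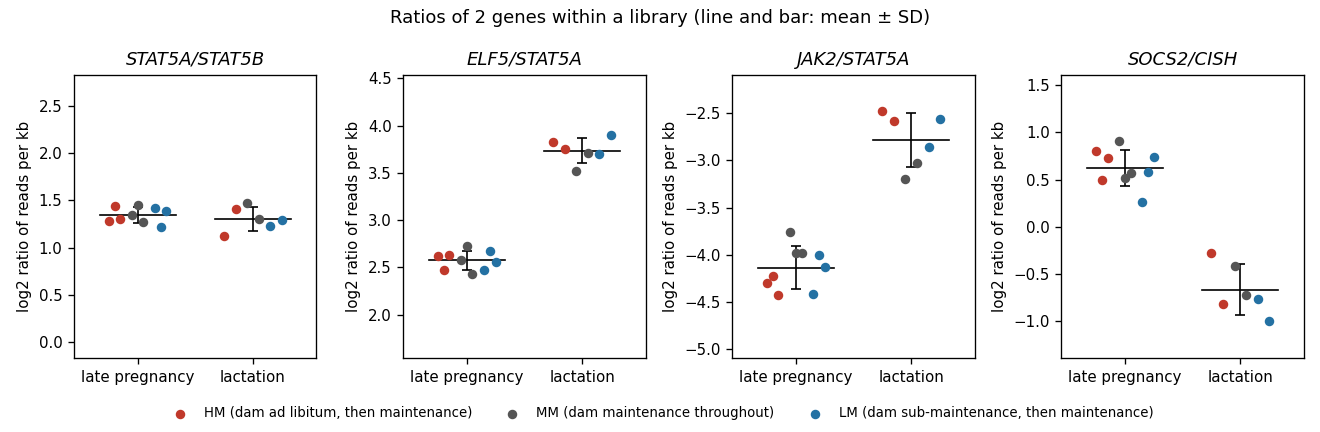
Log2 ratio of reads per kilobase between 2 members within each of the 15 libraries, late pregnancy on the left and lactation on the right, with 1 point per library coloured by dam group and a line and bar for the mean ± SD. The states are apart in ELF5/STAT5A, JAK2/STAT5A and SOCS2/CISH and overlap in STAT5A/STAT5B.

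The table also allows reads on introns to be counted, as the reads on a whole gene less those on its exons, and 58% of the 10344 genes tested in this way changed between states, 29% in each direction. Such reads can come from unspliced RNA, from exons missing in the annotation or from antisense genes, and their source was not tested. Intron reads of ELF5 were 33.7% of its reads in late pregnancy and 30.2% in lactation, on 2065 to 9217 reads per library. They rose by a log2 change of 0.49 (SE 0.09, edgeR adjusted p = 4.8e-05) without overlap, from 2642 ± 152 CPM to 3703 ± 286 CPM of all intron reads. CISH introns rose by 1.27 (SE 0.14, edgeR adjusted p = 2.3e-08), and JAK2 introns by 0.99 (SE 0.16, edgeR adjusted p = 8.96e-06) on only 19 to 77 reads per library, both without overlap. The share of the 10344 genes without overlap on introns was not computed, so the lack of overlap cannot be called particular to these members.

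STAT5A introns had a log2 change of -0.66 (SE 0.12, edgeR adjusted p = 5.37e-05) and STAT5B introns one of -0.33 (SE 0.09, edgeR adjusted p = 0.0049), and in both the libraries of the states overlapped. SOCS2 held only 2 to 36 intron reads per library, and its change of -0.04 had a 95% interval of -0.58 to 0.50 and an adjusted p of 0.917, so a difference could not be detected at this depth. The 5 members whose intron reads passed moved in the same direction on introns as on exons, for JAK2 by the same 0.99 and for ELF5, CISH and STAT5A by values that differ from those on exons. Exons and introns were scaled separately, and the difference between their changes was not tested. With the scaling of the exon reads the intron changes were 0.57 for ELF5, 1.07 for JAK2, 1.35 for CISH and -0.58 for STAT5A. For STAT5B it was then -0.24, with an edgeR adjusted p of 0.0495, just under the threshold. On library size alone the intron changes were -0.11 for ELF5, 0.38 for JAK2 (adjusted p = 0.0769) and 0.66 for CISH (adjusted p = 0.00124).

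**Figure D3:**
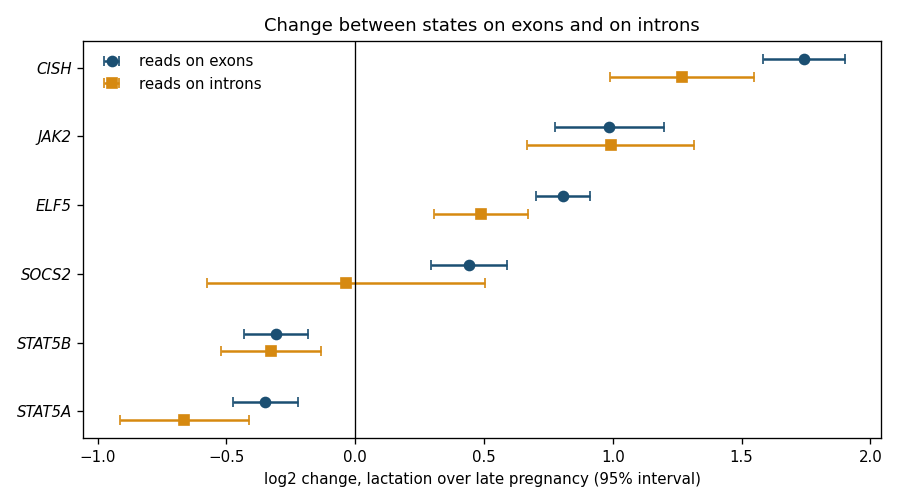
Log2 change from late pregnancy to lactation (95% interval) of 6 members, from reads on exons (circles) and from reads on introns (squares), each scaled by TMM. Points right of 0 are higher in lactation relative to the bulk of genes, the exon changes run from -0.35 for STAT5A to 1.74 for CISH, and on library size alone every exon change shown falls left of 0.

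Because a change in the share of luminal cells would move all luminal genes, the members were also set against the mean log2 level of the 8 luminal markers in the same library, as a description without a test. That mean was itself higher by 0.19 in lactation. Relative to it, ELF5 was higher by 0.62, JAK2 by 0.79 and CISH by 1.52, and STAT5A and STAT5B differed by -0.54 and -0.50, each without overlap between the states. SOCS2 was higher by 0.25 with overlapping libraries. The states thus stayed apart for 5 of the 6 tested members on this scale, and here STAT5B was among them and SOCS2 was not. The share of all genes that stay apart on this scale was not computed, and on CPM it was 40.2%. The count is therefore not particular to the members. The 8 markers did not move alike, with log2 changes from -0.44 for CLDN4 to 0.61 for KRT19.

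The change between states was also fitted in each dam group, where 46.6% of all tested genes were called in HM, 47.4% in MM and 51% in LM. ELF5 rose by 0.82, 0.76 and 0.83 in HM, MM and LM, and CISH by 1.61, 1.74 and 1.86, with edgeR adjusted p-values of 2.7e-06 or less. STAT5B had changes of -0.31, -0.30 and -0.32 with adjusted p-values of 0.0319, 0.0299 and 0.0236, and SOCS2 rose by 0.37, 0.50 and 0.45 with adjusted p-values of 0.0369, 0.00421 and 0.00999. STAT5A had a change of -0.38 in HM and -0.40 in LM, with adjusted p-values of 0.00882 and 0.00574. In MM it was -0.26 with an adjusted p of 0.0534, which missed the threshold of 0.05. On library size alone the changes of ELF5, JAK2, CISH and SOCS2 were below 0 in each dam group.

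JAK2 was the member whose change varied most between dam groups. It rose by 1.39 (SE 0.12, edgeR adjusted p = 9.21e-08) in HM, 1.06 (SE 0.11, edgeR adjusted p = 1.19e-06) in LM and 0.52 (SE 0.11, edgeR adjusted p = 0.00101) in MM. In late pregnancy the means stood in the reverse order, with HM and LM overlapping, at 18.06 ± 2.19 CPM in HM, 18.68 ± 1.61 CPM in LM and 22.55 ± 1.48 CPM in MM (SD, n = 3), and in lactation at 47.38 ± 0.13, 38.92 ± 0.95 and 32.40 ± 1.81 CPM (SD, n = 2). The edgeR test of whether the change differs between dam groups gave JAK2 an unadjusted p of 0.000225 and an adjusted p of 0.629, and called 0% of the 13345 genes, with 876 below an unadjusted 0.05. DESeq2 called 21 genes in the same comparison, and JAK2 was 1 of them with an adjusted p of 0.0199, so the call on JAK2 rests on the tool. The column names give lane 7 for both HM lactation pools and lane 8 for both LM pools, so that lane cannot be told apart from HM against LM in lactation. MM lactation had pool 1 in lane 7, at 33.68 CPM against 47.47 and 47.30 CPM in HM. Its pool 2 was in lane 8, at 31.11 CPM against 38.25 and 39.59 CPM in LM. The part of lane was not tested, and the sample descriptions say that each library was run on 2 lanes. The other 5 members had edgeR adjusted p-values from 0.893 to 1.

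**Figure D4:**
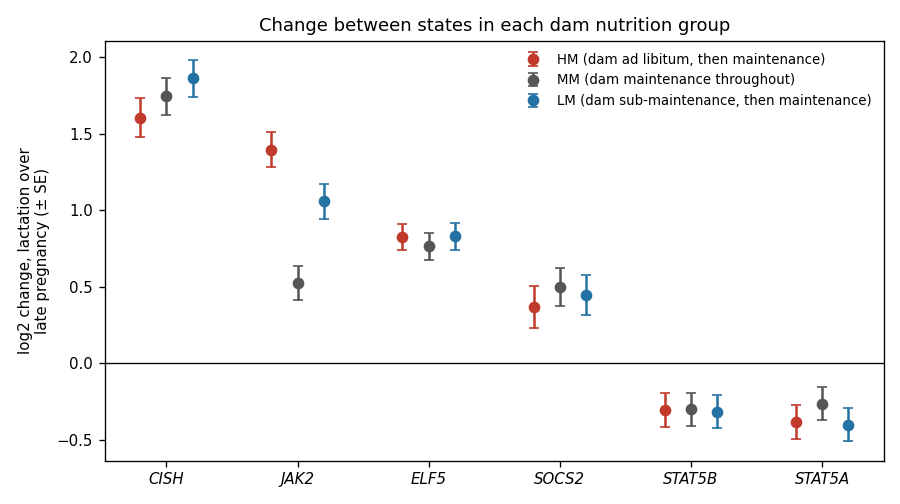
Log2 change from late pregnancy to lactation (± SE) of the 6 tested members in each dam group (HM, MM and LM, coloured), from 3 late pregnancy and 2 lactation pools a group. The 3 points of a member lie close together except for JAK2, at 1.39, 0.52 and 1.06, and on library size alone every point shown lies below 0.

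Within late pregnancy, where each dam group has 3 pools, dam nutrition called 0% of 13747 genes in edgeR and 571 fell below an unadjusted 0.05. The members' unadjusted p-values ran from 0.0224 for JAK2 to 0.777 for SOCS2, and all had an adjusted p of 1. DESeq2 called 20 genes there and none of them was a member.

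The other genes of the pathway were taken as lists, and their counts can be read against the 33.1% of all genes that were higher and the 35.2% that were lower. Of 9 symbols for ligands and receptors related to the prolactin receptor, 6 were found and 2 tested. GHR, the growth hormone receptor that also signals through JAK2, was higher by 1.35 (edgeR adjusted p = 7.84e-10) and went from 5.06 to 12.91 CPM, and CSF2RB was higher by 0.34 (edgeR adjusted p = 0.00943). PRL, the hormone itself, was nearly unread in the gland, with a mean of 0.02 CPM in late pregnancy and 0.01 CPM in lactation.

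All 3 other JAK kinases changed, 2 up and 1 down. JAK1, which serves interferon and interleukin receptors, was higher by 1.19 (edgeR adjusted p = 8.19e-12) and TYK2 by 0.54 (edgeR adjusted p = 1.06e-08). JAK3, a kinase of lymphoid cells, changed by -1.54 (edgeR adjusted p = 2.78e-07). The T cell markers were also lower, as were most endothelial, fibroblast and macrophage markers, and a link with JAK3 was not tested. Among other STATs, STAT6 was higher by 0.50 (edgeR adjusted p = 1e-06), and STAT4 was lower, at -2.00 (edgeR adjusted p = 1.02e-08). STAT2 and STAT3 did not pass, at 0.13 and -0.02.

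Among the 5 other SOCS genes 3 were higher, 1 was lower and 1 was not called. SOCS3, the inhibitor of gp130 receptors, was higher by 1.40 (edgeR adjusted p = 0.000308) at a mean of 1.43 CPM or less, SOCS6 by 1.12 (edgeR adjusted p = 2.11e-07) and SOCS7 by 0.42 (edgeR adjusted p = 0.0275). SOCS5 changed by -0.42 (edgeR adjusted p = 5.42e-05), and SOCS4 had a change of -0.23 with an adjusted p of 0.075. CISH, SOCS2 and these 3 made 5 of the 7 tested genes of the family higher in lactation, against 33.1% of all tested genes, with CISH the largest. The count was not tested, and SOCS3 and SOCS7 overlapped between the states. All these changes are relative to the bulk of genes.

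The 15 phosphatases and other brakes on JAK and STAT that were tested gave 6 higher, 3 lower and 6 not called, with a median change of 0.19. BCL6, a repressor that competes for STAT5 sites, was higher by 1.27 (edgeR adjusted p = 4.24e-10), FBXW11, a subunit of a ubiquitin ligase that takes down the receptor, by 0.73, and PTPN1, a phosphatase that acts on JAK2, by 0.69. CAV1, which can hold JAK2 inactive, changed by -0.56, SIRPA by -0.40 and PIAS3 by -0.28. The adaptors and kinases beside the receptor were evenly divided, with 6 of 14 higher, 6 lower and a median of 0.01. GAB2 was higher by 1.06 and SOS1 by 0.53. ERBB4, a receptor that also activates STAT5, was higher by 0.73 (edgeR adjusted p = 0.019), at low means of 1.22 and 1.97 CPM and with overlapping libraries. NEK3, FYN and VAV1 were lower, with changes of -1.36, -1.14 and -0.48.

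Nuclear partners of STAT5 were mostly higher, with 10 of 14 called higher, 2 lower and a median change of 0.45 against -0.03 over all tested genes. NR3C1, the glucocorticoid receptor that works with STAT5 on milk protein genes, was higher by 1.18 (edgeR adjusted p = 3.55e-10), the coactivator NCOA3 by 1.31 (edgeR adjusted p = 2.63e-11) and NFIA by 0.72 (edgeR adjusted p = 7.37e-07). NFIX had a change of -0.41 and HDAC1 one of -0.21, both lower. The ETS factors related to ELF5 did not share its rise as a group: of 9 tested, 2 were higher, 2 were lower and 5 were not called. ETS2 was higher by 1.30 and GABPA by 0.33, and ETS1 and ELF2 were lower, at -0.76 and -0.20. EHF, a close relative of ELF5 in epithelia, had a change of -0.08 with an adjusted p of 0.366 at 161.0 and 152.5 CPM.

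The milk protein genes, the textbook targets of the pathway, were all higher, 7 of 7, by 1.68 to 6.88. CSN1S2 was higher by 6.88, LALBA by 5.42 and CSN1S1 by 4.24. Other known targets of prolactin and STAT5 did not follow them: of 13 tested, 2 were higher, 7 lower and 4 not called, with a median of -0.47. PIM1, a survival kinase, was higher by 4.17 (edgeR adjusted p = 1.75e-15) and went from 2.84 to 51.24 CPM, a larger change than that of any member, and XDH, which coats milk fat, was higher by 1.49. MYC, ID2 and CCND1, genes of growth and the cell cycle, were lower, at -1.80, -1.08 and -0.96.

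**Figure D5:**
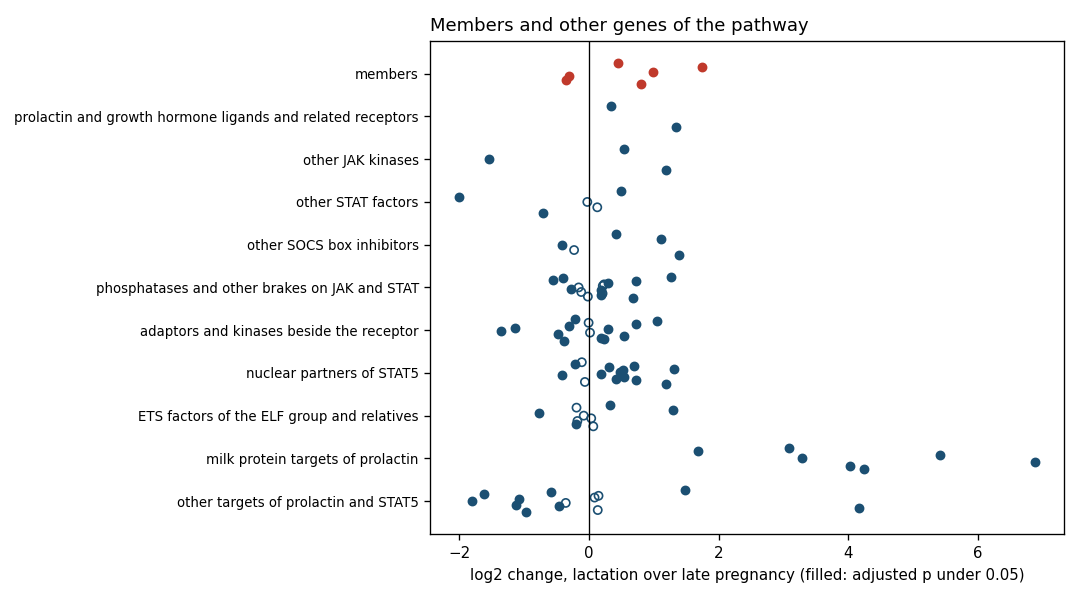
Log2 change from late pregnancy to lactation of the 6 tested members (top row) and of the tested genes of 10 lists of the pathway, 1 point per gene, filled where the edgeR adjusted p is under 0.05. The milk protein genes run to 6.88 and all lie right of the members' largest change of 1.74 except BLG at 1.68, and the values are relative to the bulk of genes, whose median falls to -1.94 on library size alone.

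After the mean of each state was taken off, the correlations of log2(CPM + 1) between pairs of tested members over the 15 libraries ran from -0.48 for STAT5A with CISH to 0.58 for STAT5A with STAT5B, a pair that shares reads. The genes most like each member on the same measure, among 12266 genes, were GPAM (r = 0.87), PIEZO1 and CCNYL1 for ELF5, TMEM175 (r = 0.84), C1H1orf226 and RNF123 for STAT5A, and BCL2A1 (r = 0.85), CACFD1 and SIDT2 for STAT5B. They were DSC2 (r = 0.88), ASH2L and RTN4 for JAK2, SLC38A2 (r = 0.86), MKRN2 and LOC101109397 for CISH, and LOC101109110 (r = 0.90), HELQ and PKP2 for SOCS2. The points of such a correlation share the pool, its cell mixture and its depth, and the highest of 12266 values is high by selection.

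The deposited RPKM values, which divide by all reads on genes, gave another picture from the scaled counts for the members that rose. ELF5 had 581.5 to 695.1 RPKM in late pregnancy and 282.0 to 347.1 RPKM in lactation, JAK2 had 4.50 to 7.30 and then 2.63 to 4.37 RPKM, and SOCS2 had 18.93 to 26.29 and then 7.65 to 10.57 RPKM. CISH had 13.36 to 17.50 RPKM in late pregnancy and 12.79 to 17.63 RPKM in lactation, overlapping almost entirely. STAT5A had 96.75 to 114.6 RPKM and then 20.39 to 28.98 RPKM, and STAT5B 38.36 to 47.58 and then 8.32 to 11.26 RPKM. In shares of all reads CISH thus stayed near its level and the other 5 fell while the milk protein genes took most of the library. The authors' quantile normalization set libraries on 1 distribution, and limma on those values gave 1.15 for ELF5, 0.80 for JAK2, 1.44 for CISH, 0.25 for SOCS2, -0.62 for STAT5A and -0.48 for STAT5B, the same directions as the scaled counts.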

How the data were processed

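Paired reads of an Illumina Hi-Seq were mapped to the sheep genome in CLC Genomics Workbench. The submitters' processing notes name Oar_v3.1 and the methods another version of the genome, and coordinates are as the table has them. The authors deposited raw counts of reads on exons and whole genes, RPKM (reads on exons per kilobase and per 1e+06 reads on genes), and RPKM after quantile normalization. Reads on the whole gene stood in for the 5583 of 24691 features without an annotated transcript, and RPKM recomputed from the counts matched to within 1.9e-06 of its value. The strand setting was not given in the sources used here, so reads of overlapping antisense genes cannot be separated. The table also holds the fold changes and p-values of the authors' own comparison, which were not used.

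Counts were filtered by filterByExpr, scaled by TMM and tested in edgeR 4.0.16 (R 4.3.3) by the quasi-likelihood F-test, without covariates for the state, with a threshold of 0.05 on the adjusted p. The interaction was fitted on all 15 libraries and dam nutrition on the 9 of late pregnancy. Ratios took a pseudocount of 0.5 reads and luminal levels one of 0.5 CPM. DESeq2 1.42.0, limma 3.58.1 (on log2(RPKM + 1) after quantile normalization), other scalings and filters, uniquely placed reads and leaving out each library were the alternatives. In simulated data of 13345 genes for the comparison of states, the test recovered 64% of 50 genes changed 1.5-fold, 74% at 2-fold and 92% at 4-fold. A far smaller share of genes changed there than the 68.4% called in the data. The adjustment was therefore stricter in the simulation, and these rates do not give the power of the real comparison. Reads carry no molecular identifiers, and the spread between pools is the measure of precision. Libraries of a group differed from each other, so none was counted as a repeat.

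Members and gene lists were chosen with earlier results of these data known. The genes named are all members, of each list at most 3 called genes in each direction with the largest change and a mean of at least 1 CPM, any gene of lists of up to 7, and the 3 genes most like each member. PRL and EHF were named after their values were seen. Of the other STAT factors, not all are reported here.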

Additional observations from a re-analysis of the deposited data

How the results depend on the processing

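With the library size as the only scaling, 13057 genes were called, 97.3% of them lower, against 9122 and 51.6% with TMM, and upper quartile scaling gave 9410 and 63.7%. The members called were then 0 higher and 6 lower, with ELF5 at -1.10, JAK2 at -0.92, CISH at -0.17 (adjusted p = 0.0402) and SOCS2 at -1.46. In HM these were -0.96, -0.39, -0.18 and -1.40, in MM -1.18, -1.42, -0.21 and -1.45 with STAT5A at -2.20 and now called, and in LM -1.16, -0.93, -0.13 and -1.55. Against the median of -1.94 of all genes the 4 remained above it. Without the milk protein genes before scaling, ELF5 was at 0.80, CISH at 1.74 and STAT5A at -0.35. No other alternative changed the direction or call of the 6 tested members, and the members higher were 5 with SOCS1 included, without a filter (2.43) and in the libraries with lane 8 in the column name (2.88). The lactation pools where SOCS1 was highest are those with lane 8 in the column name. Leaving out each library gave 0.79 to 0.83 for ELF5, 0.93 to 1.05 for JAK2, 1.68 to 1.79 for CISH, 0.41 to 0.48 for SOCS2, -0.39 to -0.31 for STAT5A and -0.34 to -0.27 for STAT5B, with 4 members higher and 2 lower each time.

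On introns, library size alone gave -0.11 for ELF5, 0.38 for JAK2 (adjusted p = 0.0769) and -0.65 for SOCS2 (adjusted p = 0.0384), the scaling of the exon reads gave 0.038 for SOCS2, and leaving out each library gave -0.18 to 0.12 for it. DESeq2 called 20 genes for dam nutrition and 21 for the interaction, 1 of them a member, JAK2. Leaving out each library gave 0 to 1 genes for nutrition (1 without LM late pregnancy pool 1) and 0 to 10 for the interaction, with 10 without HM lactation pool 2 and 2 without LM lactation pool 2, and an adjusted p of 0.377 to 0.898 for JAK2. The cause of these changes was not tested.

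Pools carry the same numbers in both states, but the labels do not say that these hold the same ewes, so the number was not taken as a pairing. After the group mean was taken off, the correlations of same-numbered pools ran from -0.02 to 0.07. With 2 lactation pools a group, these cannot decide whether such pools share ewes. With dam group and pool number as a replicate block, 8464 genes were called, and the members stayed at 4 higher and 2 lower, with ELF5 at 0.80, JAK2 at 0.97, CISH at 1.73, SOCS2 at 0.47, STAT5A at -0.34 and STAT5B at -0.29. The planned ratios with PRLR and a search of promoters were not run. Depth limits SOCS1 on exons and SOCS2 on introns.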
